A study of Mus musculus with 14 samples.

Results

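The genes described here are 31 ligands of the TGF-beta superfamily, taken from a list of TGF-beta isoforms, bone morphogenetic proteins (BMPs), growth and differentiation factors (GDFs), inhibin and activin subunits, Nodal, the Lefty proteins and anti-Mullerian hormone. They were followed in 3 deposited tables of genome regions whose chromatin immunoprecipitation (ChIP) signal differed between hypertrophic and control heart cells. A region was assigned to a ligand where it overlapped the gene body or the 2500 bp on either side of it (mouse build mm10). All 31 genes were found among 21887 protein-coding genes, and 580 of 1186054 regions lay in their windows, 260 of them in the G9a table, 60 in the H3K9me2 table and 260 in the H3K27me3 table.

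The chromatin was prepared from cells enriched for cardiomyocytes, taken from C57BL/6J mice 1 week after transverse aortic constriction (TAC), an operation that loads the left ventricle with pressure, and from sham mice, whose labels give no treatment. Each condition has 2 biological replicates with each of the 3 antibodies, against G9a, H3K9me2 and H3K27me3, and 1 input library, which was not used here; sex and age were not given in the sources used here. Each table gives 4 values for a region, 2 for the libraries of one condition and 2 for those of the other, but not which pair is TAC and which is sham. Values are therefore given by pair, the second pair before the first, and every difference is second over first, so that a positive log2 difference means a higher value in the second pair. A region was called when the authors listed it, which they did at a deposited p of at most 0.01. It is termed separated where the lower value of its higher pair is still above the higher value of the other pair.

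TGF-beta superfamily ligands are secreted as dimers that join type I and type II receptor kinases on the target cell, and the receptors phosphorylate SMAD proteins, which enter the nucleus and bind DNA. TGF-betas, activins and Nodal act mainly through one group of SMADs and most BMPs through another. In the heart, TGF-beta is known as a driver of fibrosis under pressure load, while BMP2, BMP4 and BMP10 are best known from heart development. G9a is a methyltransferase that places H3K9me2, a mark of silent chromatin, and H3K27me3 is the mark of the Polycomb repressive complex, which often covers developmental regulator genes that a cell does not use. In chromatin from many cells, a larger share of cells with a mark and more of the mark per cell cannot be told apart.

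RefSeq promoter windows (build GRCm38.p6, 250 bases before to 50 after the start) were given for 20 of the 31 ligands. Windows of 6 ligands are shown because they mark the contrasts in the data. Bmp4, Bmp10, Nodal and Gdf10 have starts that lie under long H3K27me3 regions higher in the second pair. Tgfb1 and Gdf15 have starts under no listed region of any antibody. Each is written 5′ to 3′ on the strand of the gene, with CG dinucleotides in capitals.
Bmp4 (chr14:46390620-46390919, minus strand): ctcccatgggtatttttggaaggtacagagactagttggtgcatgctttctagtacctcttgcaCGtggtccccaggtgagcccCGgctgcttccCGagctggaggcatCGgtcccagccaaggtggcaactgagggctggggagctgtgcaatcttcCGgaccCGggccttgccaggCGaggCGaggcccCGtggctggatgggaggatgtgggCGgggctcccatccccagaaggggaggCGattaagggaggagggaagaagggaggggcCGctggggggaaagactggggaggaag
Bmp10 (chr6:87428744-87429043, plus strand): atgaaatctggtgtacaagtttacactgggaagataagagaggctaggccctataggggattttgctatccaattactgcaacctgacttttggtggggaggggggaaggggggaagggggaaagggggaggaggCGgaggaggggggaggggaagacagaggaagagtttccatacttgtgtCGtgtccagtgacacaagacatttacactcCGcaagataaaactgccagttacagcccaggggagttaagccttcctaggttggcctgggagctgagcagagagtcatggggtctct
Nodal (chr10:61417722-61418021, plus strand): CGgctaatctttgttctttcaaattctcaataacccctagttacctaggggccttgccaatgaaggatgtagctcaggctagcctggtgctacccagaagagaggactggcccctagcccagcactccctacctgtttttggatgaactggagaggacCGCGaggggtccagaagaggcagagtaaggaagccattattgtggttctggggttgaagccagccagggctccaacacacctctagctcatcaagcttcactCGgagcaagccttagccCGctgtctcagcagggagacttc
Gdf10 (chr14:33923337-33923636, plus strand): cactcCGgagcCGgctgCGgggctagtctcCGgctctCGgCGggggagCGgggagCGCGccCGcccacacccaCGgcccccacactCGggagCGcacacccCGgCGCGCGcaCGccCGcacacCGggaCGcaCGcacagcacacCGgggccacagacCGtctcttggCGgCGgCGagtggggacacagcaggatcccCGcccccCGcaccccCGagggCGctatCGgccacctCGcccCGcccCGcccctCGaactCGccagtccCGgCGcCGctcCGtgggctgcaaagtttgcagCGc
Tgfb1 (chr7:25686752-25687051, plus strand): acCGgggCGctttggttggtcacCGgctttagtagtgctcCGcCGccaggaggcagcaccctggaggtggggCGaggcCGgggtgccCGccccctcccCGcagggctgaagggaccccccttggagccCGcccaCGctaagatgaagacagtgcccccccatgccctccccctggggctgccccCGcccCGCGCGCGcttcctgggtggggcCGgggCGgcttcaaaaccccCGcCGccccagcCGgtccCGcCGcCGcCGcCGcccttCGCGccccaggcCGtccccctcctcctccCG
Gdf15 (chr8:70632407-70632706, minus strand): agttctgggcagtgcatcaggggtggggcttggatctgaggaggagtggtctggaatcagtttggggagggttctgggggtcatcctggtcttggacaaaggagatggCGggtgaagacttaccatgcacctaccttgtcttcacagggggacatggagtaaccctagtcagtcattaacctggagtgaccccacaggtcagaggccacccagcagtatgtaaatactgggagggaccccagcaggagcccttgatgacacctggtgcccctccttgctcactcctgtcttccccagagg
These windows hold 12 CG dinucleotides for Bmp4, 3 for Bmp10, 5 for Nodal, 42 for Gdf10, 30 for Tgfb1 and 1 for Gdf15, so CG-poor and CG-rich starts stand on both sides. A second window of Gdf15 at chr8:70632046-70632345 holds 7 and likewise lay under no listed region.

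H3K27me3 regions covered more of the ligand windows than of other genes' windows, mostly through regions higher in the second pair. Of the 31 ligands, 25 had an H3K27me3 region higher in the second pair (80.6%, against 50.4% of all protein-coding genes). Those without were Tgfb1, Tgfb2, Gdf9, Gdf15, Mstn and Inha. An H3K27me3 region higher in the first pair was listed for 26 (83.9%, against 58.3% of all genes), and 27 had one in either direction (87.1%, against 66.7%). Regions higher in the second pair covered 28.3% of the ligand windows, against 12.3% of all other genes' windows, and regions higher in the first pair covered 10.2%, against 7.31%. The ligand windows were the shorter ones, with a median of 12.4 kb, against 22.2 kb for the other genes.

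G9a showed the same order. A G9a region higher in the second pair was listed for 28 ligands (90.3%, against 55.5% of all genes), all but Tgfb2, Mstn and Inha. A G9a region higher in the first pair was listed for 24 (77.4%), a share close to the 76.7% of all genes, and 30 had one in either direction (96.8%, against 84.0%). Regions higher in the second pair covered 14.6% of the ligand windows, against 5.92% elsewhere, and those higher in the first pair 7.88%, against 5.21%.

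H3K9me2, the mark that G9a places, was listed at few ligands. A region higher in the second pair was listed for 6 ligands (19.4%, against 38.8% of all genes), namely Tgfb2, Tgfb3, Bmp5, Bmp6, Bmp7 and Inhbc. A region higher in the first pair was listed for 11 (35.5%, against 48.1%), and 12 had one in either direction (38.7%, against 58.1%). Per length the shares were close, since second-pair regions covered 1.99% of the ligand windows, against 2.05% elsewhere, and first-pair regions 2.28%, against 2.61%. All 60 ligand regions of this mark were short, at most 1500 bp.

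**Figure D1:**
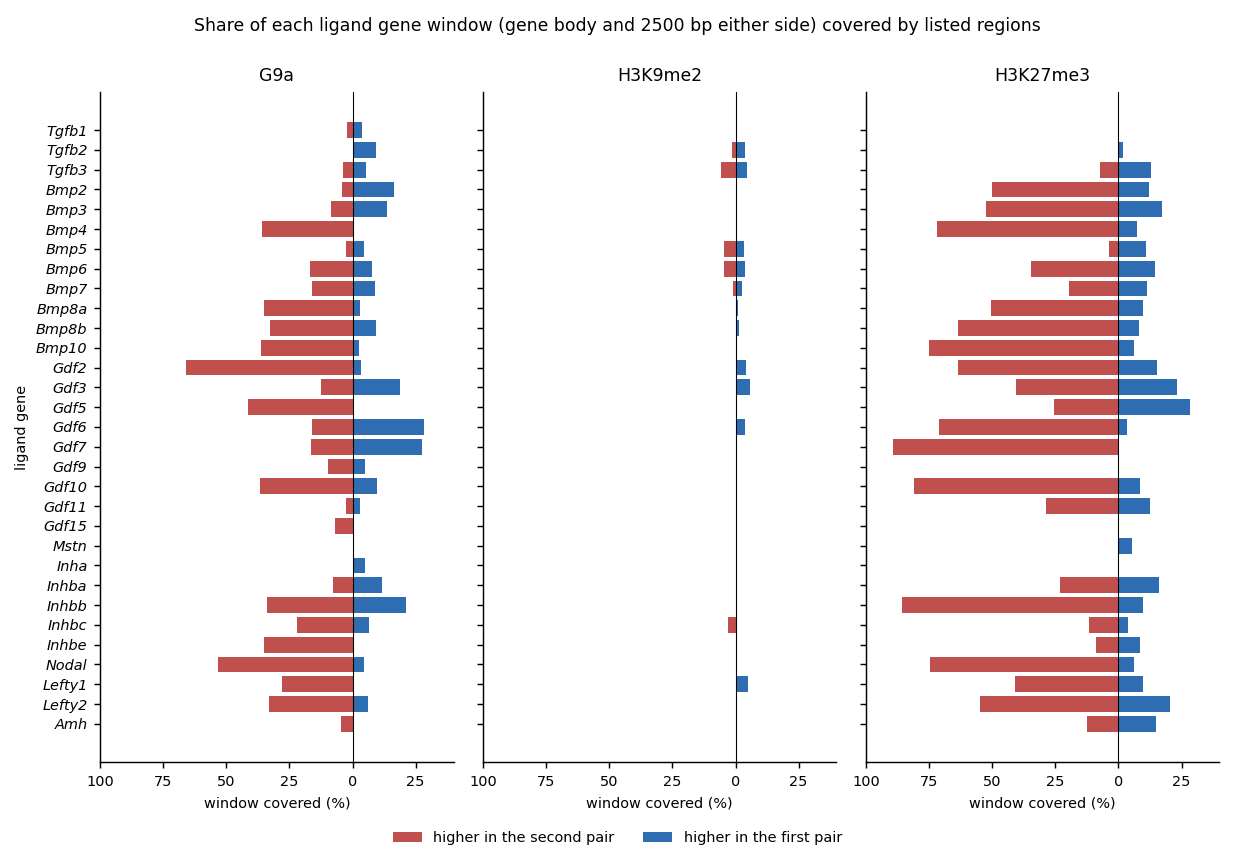
Share of each ligand gene window covered by listed regions of G9a, H3K9me2 and H3K27me3, in percent, with bars to the left for regions higher in the second pair and bars to the right for regions higher in the first pair. H3K27me3 bars to the left reach 89.4% at Gdf7, 85.6% at Inhbb and 81.0% at Gdf10, G9a bars to the left reach 66.0% at Gdf2 and 53.5% at Nodal, and Tgfb1, Gdf9, Gdf15 and Inha have no H3K27me3 bar.

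Among the ligand regions, 152 of the 260 H3K27me3 regions were higher in the second pair (58.5%, against 42.7% of all regions in the table), and 153 of the 260 G9a regions (58.8%, against 44.5%). Of the 60 H3K9me2 regions, 26 were higher in the second pair (43.3%, against 44.4%). The median log2 difference of the ligand regions was 0.51 for H3K27me3, against -0.58 for all regions of that table, 0.66 for G9a, against -0.67, and -0.77 for H3K9me2, against -0.66. These medians follow the share in each direction: among second-pair H3K27me3 regions alone, the median was 0.76 at the ligands, against 0.84 over the table. Of the second-pair H3K27me3 regions, 116 were separated (76.3%, against 71.4%), and of the first-pair ones 53 (49.1%, against 67.6%). For G9a, 96 second-pair regions (62.7%, against 63.1%) and 63 first-pair regions (58.9%, against 59.8%) were separated, close to the table as a whole. For H3K9me2 these were 12 (46.2%, against 66.3%) and 24 (70.6%, against 69.2%).

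With 2 libraries per pair, single libraries weigh heavily. Of the 83 ligand regions followed with each library left out in turn, 51 moved by over 1.5 times on the log2 scale in at least one of the 4 cases, 26 of 36 for G9a, 12 of 14 for H3K9me2 and 13 of 33 for H3K27me3. Leave-one-out values are given beside many of the regions below.

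Long H3K27me3 regions were frequent at the ligands. Of the second-pair regions, 26 spanned 3 kb or more (17.1%, against 8.48% of all second-pair regions of the table), and they lay at 15 ligands. The longest were 8650 bp at Nodal, 8250 bp at Bmp10 and 8100 bp at Inhbb. All 26 were separated, with log2 differences between 0.40 and 1.57; of all such regions, 97.0% were separated. No ligand had a first-pair region of that length, and of all regions this long, 95.1% were higher in the second pair. Second-pair H3K27me3 regions at ligands had a median length of 1150 bp (900 bp over the table), and first-pair ones of 825 bp (750 bp over the table). The first-pair ones often stood directly at the edge of a second-pair region: 34 of the 108 abutted one (31.5%, against 11.5% over the table).

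**Figure D2:**
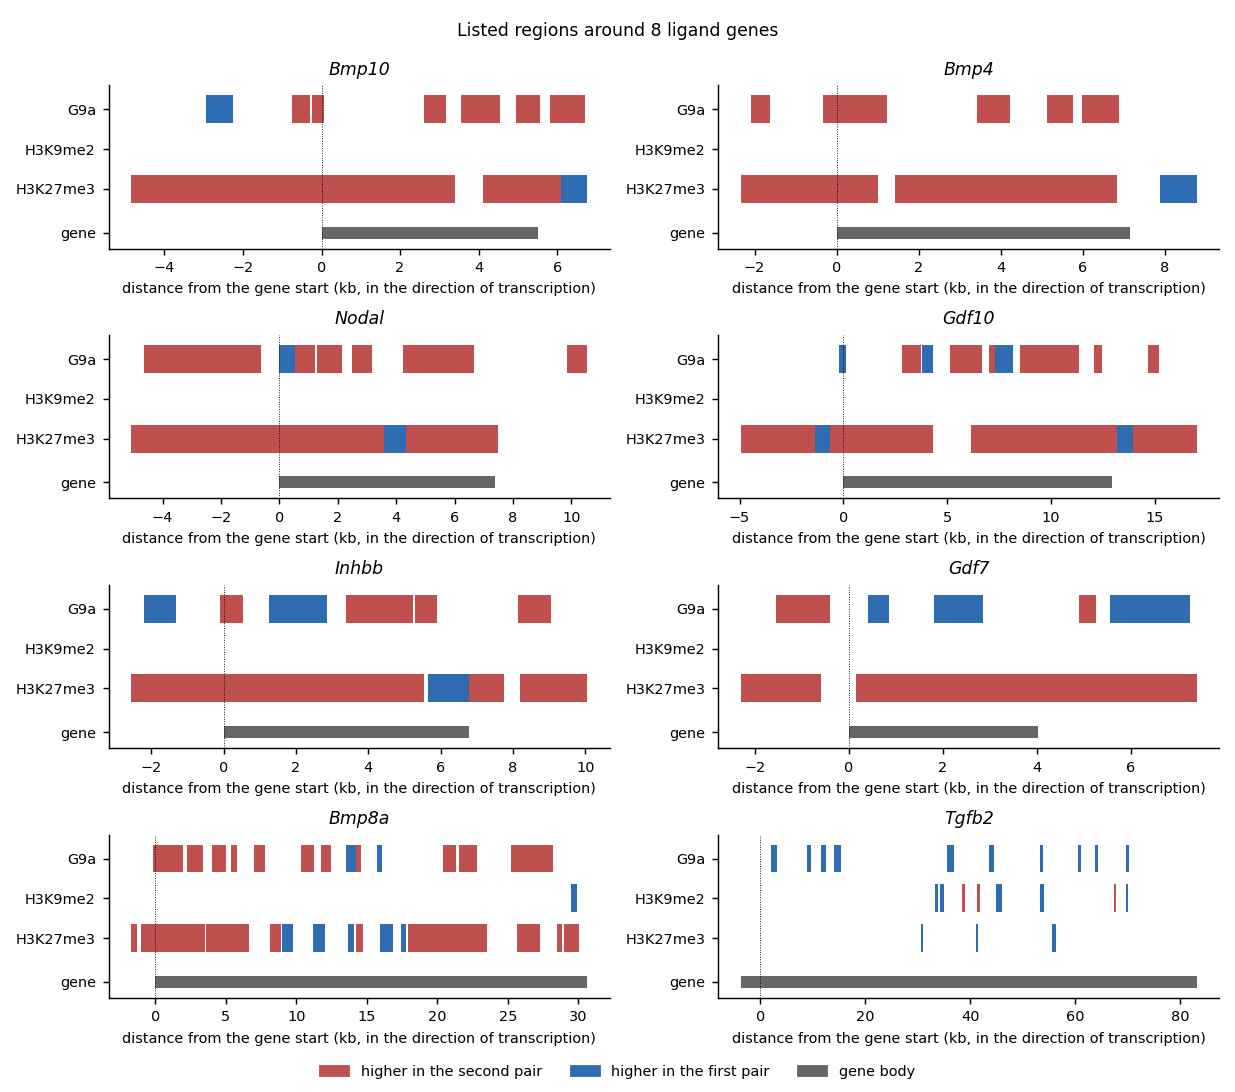
Listed regions along 8 ligand genes, as distance in kb from the gene start used for the promoter window (dotted line) in the direction of transcription, with regions higher in the second pair in red, those higher in the first pair in blue and the gene body in grey. H3K27me3 regions of the second pair run over the starts of Bmp10, Bmp4, Nodal, Gdf10, Inhbb and Bmp8a, whereas all 10 G9a regions and all 3 H3K27me3 regions of Tgfb2 are higher in the first pair.

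The 3 TGF-beta isoforms differed among themselves. Tgfb1, the isoform most often tied to fibrosis, had no H3K27me3 and no H3K9me2 region. Its G9a regions were a second-pair region in the flank, with 68 and 95 in the second pair, against 38 and 24 in the first (log2 difference 1.37), and a first-pair region inside the gene, with 29 and 121 in the second pair, against 216 and 149 in the first (-1.27). Both were separated, but the first-pair difference was -0.59 without the first library of the second pair and -2.61 without the second.

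Tgfb2, which heart valve formation requires, leaned to the first pair for G9a and H3K27me3. Its 10 G9a regions were all higher in the first pair, and 7 of them were separated; without the first library of the second pair, at least 1 of the 10 was higher in the second. At the one with the smallest deposited p, the values were 19 and 42 in the second pair, against 178 and 188 in the first (log2 difference -2.55). Its 3 H3K27me3 regions were also all higher in the first pair and separated, led by one with 46 and 24 in the second pair, against 144 and 142 in the first (-2.0). H3K9me2 went both ways at Tgfb2, with 3 second-pair and 5 first-pair regions. The leading first-pair region had 89 and 8 in the second pair, against 158 and 287 in the first (-2.17). The second-pair region named had 62 and 123 in the second pair, against 44 and 64 in the first (0.77), and its pairs overlap. Without the second library of the second pair these values were -1.31 and 0.20, and without the first -4.63 and 1.17.

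Tgfb3, the third isoform, had regions of every antibody in both directions. H3K27me3 was higher in the second pair at a region with 317 and 300 in the second pair, against 178 and 223 in the first (0.62). It was higher in the first pair at one with 18 and 2 in the second pair, against 59 and 151 in the first (-3.27). Both were separated, so the mark differed in both directions within the gene. G9a had 176 and 171 in the second pair, against 112 and 122 in the first, at the second-pair region (0.56). At the first-pair region, in the flank shared with Ift43, it had 12 and 64 in the second pair, against 81 and 143 in the first (-1.53). H3K9me2 had 158 and 104 in the second pair, against 43 and 74 in the first, at the second-pair region (1.15). At the first-pair region it had 35 and 106 in the second pair, against 102 and 162 in the first (-0.90), where the pairs overlap. Without the first library of the second pair the first-pair differences at Tgfb3 were -5.14 for H3K27me3, -0.80 for G9a and -0.31 for H3K9me2, and without the second the G9a and H3K9me2 ones were -3.12 and -1.89.

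All 10 BMPs of the list, counting Gdf2, whose product is also called BMP9, had H3K27me3 regions in both directions. They held 108 second-pair regions, 80 of them separated, and 74 first-pair regions, 35 of them separated. They also held 100 second-pair and 60 first-pair G9a regions. Much of this came from the long genes, since Bmp6 alone, a regulator of iron balance in the liver, has a window of 159.6 kb with 45 second-pair and 26 first-pair H3K27me3 regions.

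Bmp4, needed for mesoderm and heart formation, had higher second-pair H3K27me3 over its start. The H3K27me3 region over its promoter window (chr14:46389651-46393000) had 2133 and 1813 in the second pair, against 633 and 1194 in the first (log2 difference 1.11, pooled SD 0.47 over 2 libraries per pair). The first pair's own values differed nearly as much as the pairs did, and without its first library the difference was 0.72. Most of the rest of the gene body lay under a second region of 5400 bp, with 3089 and 3497 in the second pair, against 1961 and 3017 in the first (0.40). The only first-pair H3K27me3 region of Bmp4 was downstream, with 150 and 96 in the second pair, against 203 and 279 in the first (-0.96).

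G9a was higher at the same Bmp4 start by the deposited p, mostly in one library. The region chr14:46389451-46391000 had 133 and 554 in the second pair, against 75 and 154 in the first (log2 difference 1.58). The first library of the second pair lay between those of the first pair, so the pairs overlap, and without the second library of that pair the difference was 0.21. Bmp4 had 5 G9a regions, all of them higher in the second pair.

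Bmp10, made by embryonic and atrial cardiomyocytes, lay almost wholly under second-pair H3K27me3. The region from upstream of its start into the gene (chr6:87424151-87432400) had 4318 and 3925 in the second pair, against 2208 and 2859 in the first (log2 difference 0.70, pooled SD 0.20). Its small first-pair region in the downstream flank had 185 and 217 in the second pair, against 276 and 238 in the first (-0.35), a difference of -0.04 once each library was divided by its median over the table. G9a was higher in the second pair over the start, with 34 and 63 in the second pair, against 13 and 24 in the first (1.34), and inside the gene, with 232 and 125 in the second pair, against 43 and 108 in the first (1.23). Upstream, G9a was higher in the first pair, with 58 and 90 in the second pair, against 180 and 106 in the first (-0.94). All 5 of these regions were separated. The G9a differences were smallest without one library each, at 0.84 over the start (without the second library of the second pair), 0.72 inside the gene (without the first library of either pair) and -0.51 upstream (without the first library of the first pair).

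Bmp2, which acts in valve and bone formation, had 2844 and 2706 H3K27me3 in the second pair, against 1985 and 1653 in the first, over 4600 bp of its gene body (log2 difference 0.61). In the flank it had a first-pair region with 322 and 117 in the second pair, against 419 and 260 in the first (-0.63), where the pairs overlap and which came to -0.08 without the second library of the second pair. G9a at Bmp2 was mostly higher in the first pair, at 4 of its 5 regions. The leading one, at the edge of the flank and mostly outside the window, had 84 and 87 in the second pair, against 165 and 189 in the first (-1.04). The second-pair one had 147 and 107 in the second pair, against 2 and 138 in the first (0.85); it was not separated, and it came to -0.12 without the first library of the first pair and 5.42 without the second.

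Bmp8a and Bmp8b, close neighbours on chromosome 4 known mainly from germ cell development, had high values of both G9a and H3K27me3 in the second pair. At Bmp8a the largest H3K27me3 difference was 962 and 843 in the second pair, against 263 and 342 in the first (1.57). Over its start the values were 2396 and 2256 in the second pair, against 1961 and 1405 in the first (0.47), with 0.25 to 0.73 according to which first-pair library was left out. The G9a region with the smallest deposited p of any ligand lay inside Bmp8a, with 1137 and 526 in the second pair, against 277 and 284 in the first (1.56), and without the first library of the second pair the difference was 0.90. A second G9a region lay over the start, with 286 and 497 in the second pair, against 177 and 226 in the first (0.95), or 0.50 without the second library of the second pair. First-pair H3K27me3 at Bmp8a had 172 and 0 in the second pair, against 269 and 184 in the first (-1.39). That value rests on the library at 0, since it was -0.40 without it and -7.83 without the other one of its pair.

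At Bmp8b, H3K27me3 was 2887 and 2388 in the second pair, against 1792 and 1264 in the first, in a region shared with the neighbour Oxct2b (0.79). Over its start it was 1546 and 1252 in the second pair, against 1064 and 1237 in the first (0.28), a small step whose pairs are separated by little. G9a inside Bmp8b had 467 and 397 in the second pair, against 56 and 305 in the first (1.25, pooled SD 1.22), with 0.50 without the first library of the first pair and 2.93 without the second. Over the start it had 88 and 260 in the second pair, against 18 and 168 in the first (0.90), where the pairs overlap. At both genes the H3K27me3 difference over the start was smaller than at the leading region inside the gene.

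Gdf2, a circulating ligand that acts on endothelial cells, had second-pair regions over 63.7% of its window for H3K27me3 and 66.0% for G9a. Its start region had 817 and 910 H3K27me3 in the second pair, against 235 and 423 in the first (1.39). Its leading G9a region, at the gene's end, had 532 and 243 in the second pair, against 215 and 122 in the first (1.20). Bmp3, whose product opposes other BMPs, had 2983 and 3063 H3K27me3 across one end of the gene in the second pair, against 1894 and 2219 in the first (0.56). Its G9a first-pair region had 0 and 45 in the second pair, against 85 and 84 in the first (-1.86), which became -0.89 without the first library of the second pair and -6.42 without the second.

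Bmp5, Bmp6 and Bmp7, a closely related subgroup with long genes, held most of the listed H3K9me2 regions of the ligands and the steepest first-pair regions of the BMPs. Inside Bmp6, H3K9me2 had 362 and 320 in the second pair, against 94 and 148 in the first (log2 difference 1.49), and G9a had 531 and 516 in the second pair, against 230 and 146 in the first, at a neighbouring region (1.47). H3K27me3 had 95 and 40 in the second pair, against 327 and 306 in the first, a little further along (-2.21). These regions, each the leading one of its antibody and direction at Bmp6, lie side by side and do not overlap one another. Within the Bmp6 window, second-pair H3K9me2 overlapped second-pair regions of both G9a and H3K27me3, and also first-pair H3K27me3.

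Elsewhere in Bmp6, G9a had 1 and 5 in the second pair, against 96 and 45 in the first (-4.16). H3K9me2 at its first-pair region had 31 and 46 in the second pair, against 181 and 76 in the first (-1.71), or -0.96 without the first library of the first pair. The H3K27me3 region over the Bmp6 start had 1430 and 1162 in the second pair, against 908 and 1340 in the first (0.21), where the pairs overlap. The next one, inside the gene, had 1706 and 1763 in the second pair, against 748 and 1199 in the first (0.83), and was separated.

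Bmp5 leaned to the first pair, with 15 of its 22 H3K27me3 regions and 10 of its 15 G9a regions higher there. Its leading H3K27me3 region had 156 and 123 in the second pair, against 463 and 330 in the first (-1.50). Its leading G9a region had 1 and 102 in the second pair, against 223 and 156 in the first (-1.86), and the difference was -0.89 without the first library of the second pair and -6.57 without the second. H3K9me2 had 237 and 271 in the second pair, against 73 and 155 in the first, at the leading second-pair region (1.15), and 27 and 0 in the second pair, against 126 and 38 in the first, at the leading first-pair region (-2.52). Without the first library of the first pair these came to 0.71 and -1.43.

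At Bmp7, known from kidney and eye development, a G9a region at the edge of the flank had 657 and 514 in the second pair, against 107 and 206 in the first (1.90). Most of that region (chr2:172942601-172944800) lies outside the window, which ends at 172942821. H3K9me2 inside the gene had 38 and 7 in the second pair, against 120 and 138 in the first (-2.47), and at a second-pair region 79 and 45 in the second pair, against 23 and 29 in the first (1.22). H3K27me3 had 123 and 92 in the second pair, against 224 and 301 in the first (-1.28), and 407 and 498 in the second pair, against 202 and 271 in the first, at its leading second-pair region (0.93). All 5 of these Bmp7 regions were separated, and without the first library of the second pair the H3K9me2 differences were -4.02 and 0.77.

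**Figure D3:**
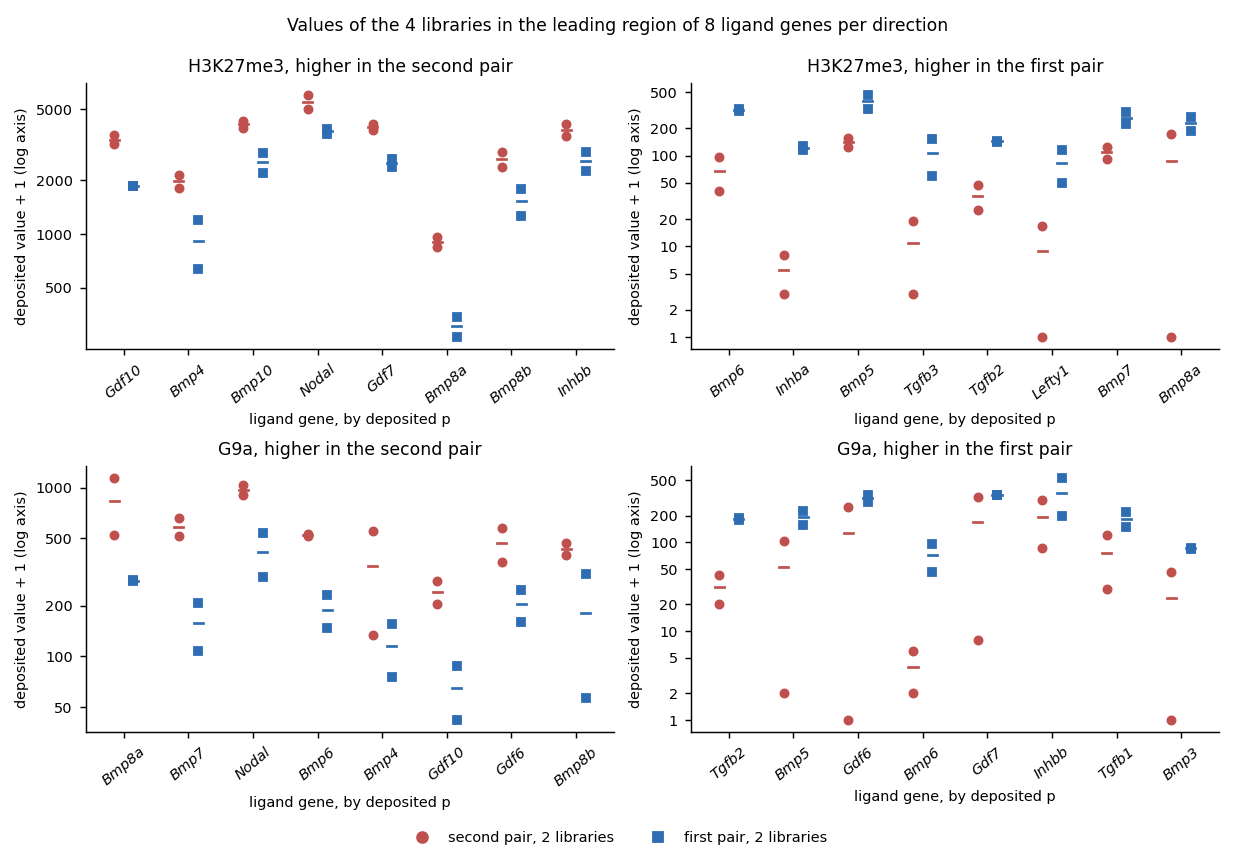
Deposited values plus 1 of the 4 libraries (log axis) in the leading region of the 8 ligands with the smallest deposited p, for H3K27me3 (top) and G9a (bottom), with second-pair libraries as red circles, first-pair libraries as blue squares and a short line at each pair's mean. The 8 second-pair H3K27me3 regions are separated with values of 263 or more, while first-pair G9a regions such as Gdf6, Gdf7 and Bmp3 have one second-pair library far below the other.

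Of the 9 GDFs, counting myostatin, 6 had a second-pair H3K27me3 region and 6 a first-pair one. Gdf10, also called BMP3B, had the smallest deposited p of any ligand region. That region, over the 3′ part of the gene, had 3579 and 3180 in the second pair, against 1849 and 1855 in the first (log2 difference 0.87, pooled SD 0.09). The region over its CG-rich start had 3239 and 2943 in the second pair, against 1764 and 2085 in the first (0.68). A further one in the flank had 1943 and 1807 in the second pair, against 684 and 1044 in the first (1.12). All 3 were separated. G9a inside the gene had 203 and 279 in the second pair, against 41 and 87 in the first (1.90). Over the start G9a had 3 and 63 in the second pair, against 88 and 33 in the first (-0.86), where the pairs overlap, and the difference turned to 0.06 without the first library of the second pair.

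Gdf5, Gdf6 and Gdf7, which shape joints and the skeleton, all had second-pair H3K27me3 regions. These covered 89.4% of the Gdf7 window and 70.9% of the Gdf6 window. At Gdf5 they covered 25.7%, less than the 28.5% under first-pair regions. Gdf7 had 4146 and 3824 in the second pair, against 2386 and 2640 in the first, over 7250 bp that also reach the neighbour Ldah (0.67). Gdf6 had 3673 and 3316 in the second pair, against 2023 and 2690 in the first (0.57), and Gdf5 had 1142 and 976 in the second pair, against 348 and 626 in the first (1.12). In these 3 regions the pairs were separated. G9a at Gdf6 was higher in the second pair at one region, with 363 and 579 in the second pair, against 160 and 248 in the first (1.20). At the neighbouring first-pair region it had 0 and 251 in the second pair, against 282 and 341 in the first (-1.30). That difference was -0.31 without the first library of the second pair and -8.29 without the second. Gdf7 had 7 and 326 G9a in the second pair, against 339 and 343 in the first (-1.03), in the flank outside the gene. There the difference was -0.06 without the first library of the second pair and -5.42 without the second. Gdf5 had G9a regions of the second pair alone, led by 105 and 121 in the second pair, against 2 and 28 in the first (2.83).

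Gdf11, a relative of myostatin, changed direction along its gene. H3K27me3 upstream of the start had 857 and 1026 in the second pair, against 526 and 452 in the first (0.94). At the start it had 993 and 774 in the second pair, against 593 and 502 in the first (0.69). The directly adjoining region inside the gene had 434 and 205 in the second pair, against 641 and 266 in the first (-0.50), where the pairs overlap and the sign turned to 0.26 without the first library of the first pair. G9a at Gdf11 had 19 and 133 in the second pair, against 53 and 3 in the first, at the second-pair region (1.41), and 0 and 68 in the second pair, against 108 and 45 in the first, at the first-pair region (-1.15), neither of them separated. They came to -0.54 without the second library of the second pair and to -0.17 without the first. The difference at the first-pair region was -6.28 without the second library of the second pair.

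Gdf15 and myostatin, the ligands of this group best known from stressed or growing muscle, had few listed regions in windows of 8.08 kb and 11.44 kb. Only regions whose pairs differ are listed, so this does not give the level of G9a or of the marks. Gdf15, a stress cytokine, had a lone G9a region in any table, with 164 and 60 in the second pair, against 3 and 83 in the first (1.36), where the pairs overlap and the difference was 0.43 without the first library of the first pair and 4.82 without the second. Mstn, which limits muscle mass, had a lone region too, of H3K27me3 in its upstream flank, with 17 and 120 in the second pair, against 178 and 131 in the first (-1.16), or -0.36 without the first library of the second pair and -3.11 without the second. Gdf9, an oocyte factor, had no region of either histone mark and adjoining G9a regions of both directions. These were 160 and 128 in the second pair, against 71 and 100 in the first (0.75), and 51 and 63 in the second pair, against 78 and 119 in the first (-0.78). Gdf3, known from pluripotent cells, had H3K27me3 of 1073 and 1016 in the second pair, against 778 and 653 in the first, across one end of the gene (0.55). In the adjoining region it had 627 and 718 in the second pair, against 912 and 1026 in the first (-0.53). The regions given for Gdf9 and Gdf3 were all separated.

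The inhibin and activin subunits split. Inhbb, the activin beta-B subunit, lay under second-pair H3K27me3 over 85.6% of its window, with 4137 and 3548 in the second pair, against 2269 and 2886 in the first, across its start (log2 difference 0.58). G9a over the Inhbb start had 92 and 151 in the second pair, against 50 and 78 in the first (0.91), or 0.52 without the second library of the second pair. Inside the gene a first-pair G9a region had 85 and 295 in the second pair, against 195 and 527 in the first (-0.92), where the pairs overlap and which came to -0.04 without the second library of the first pair. Inha, the inhibin alpha subunit, had no region of either histone mark and a single G9a region, with 3 and 52 in the second pair, against 71 and 86 in the first (-1.48).

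Inhba, the activin beta-A subunit, held the steepest H3K27me3 difference of the list, in the flank beyond the gene, with 2 and 7 in the second pair, against 115 and 127 in the first (-4.47). It also had a second-pair region inside the gene, with 233 and 206 in the second pair, against 195 and 39 in the first (0.90), whose size depends on the first-pair library used, at 2.46 without the first of them and 0.17 without the second. G9a at Inhba had 193 and 296 in the second pair, against 136 and 64 in the first, inside the gene (1.28). It had 27 and 85 in the second pair, against 113 and 145 in the first, in the flank (-1.19), and 42 and 142 in the second pair, against 175 and 172 in the first, over the promoter window (-0.91). These first-pair differences were -0.60 and -0.29 without the first library of the second pair, and -2.22 and -2.02 without the second. That window lies inside the gene as the gene table draws it.

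Inhbc and Inhbe, subunits made mainly in the liver, are neighbours on chromosome 10. Inhbc had 570 and 747 H3K27me3 over its start in the second pair, against 203 and 516 in the first (0.87), or 0.35 without the first library of the first pair and 1.69 without the second. Among the 20 ligands with a RefSeq promoter window, Inhbe alone had a first-pair H3K27me3 region over it, where 7.53% of all genes had one. It had 80 and 50 in the second pair, against 75 and 142 in the first (-0.73), and its G9a there had 46 and 190 in the second pair, against 79 and 61 in the first (0.75). In both Inhbe regions the pairs overlap, and leaving out 1 library brought the differences to -0.20 and -0.60. Inhbc had an H3K9me2 region with 28 and 181 in the second pair, against 69 and 41 in the first (0.91), also overlapping and -0.95 without the second library of the second pair.

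Nodal, the embryonic left-right and germ layer signal, had the highest mean H3K27me3 value in the second pair of any ligand region, in the longest of them (8650 bp). Values are not divided by region length, so this does not rank the ligands by density of the mark. The region over its start (chr10:61412901-61421550) had 6011 and 5048 in the second pair, against 3879 and 3649 in the first (log2 difference 0.55, pooled SD 0.13). A shorter one at its 3′ side had 1900 and 1589 in the second pair, against 1352 and 1186 in the first (0.46). G9a upstream had 1039 and 902 in the second pair, against 293 and 540 in the first (1.22). At the start itself a first-pair G9a region had 43 and 122 in the second pair, against 150 and 100 in the first (-0.59), where the pairs overlap and which came to -0.03 without the first library of the second pair.

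Lefty1 and Lefty2, the antagonists of Nodal, each had second-pair H3K27me3 across one end of the gene. Lefty1 had 1427 and 1457 in the second pair, against 959 and 779 in the first (0.73), and Lefty2 had 1870 and 1869 in the second pair, against 1317 and 1461 in the first (0.43). In the flank of Lefty1, shared with Tmem63a, H3K27me3 had 16 and 0 in the second pair, against 115 and 49 in the first (-3.21), and H3K9me2 had 25 and 28 in the second pair, against 42 and 96 in the first (-1.35). The H3K27me3 difference was -6.38 without the first library of the second pair, and the H3K9me2 one -0.64 without the second library of the first pair. Amh, the hormone that removes the Mullerian duct in males, had small regions shared with its neighbours, led by H3K27me3 of 139 and 198 in the second pair, against 61 and 81 in the first (1.24).

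**Figure D4:**
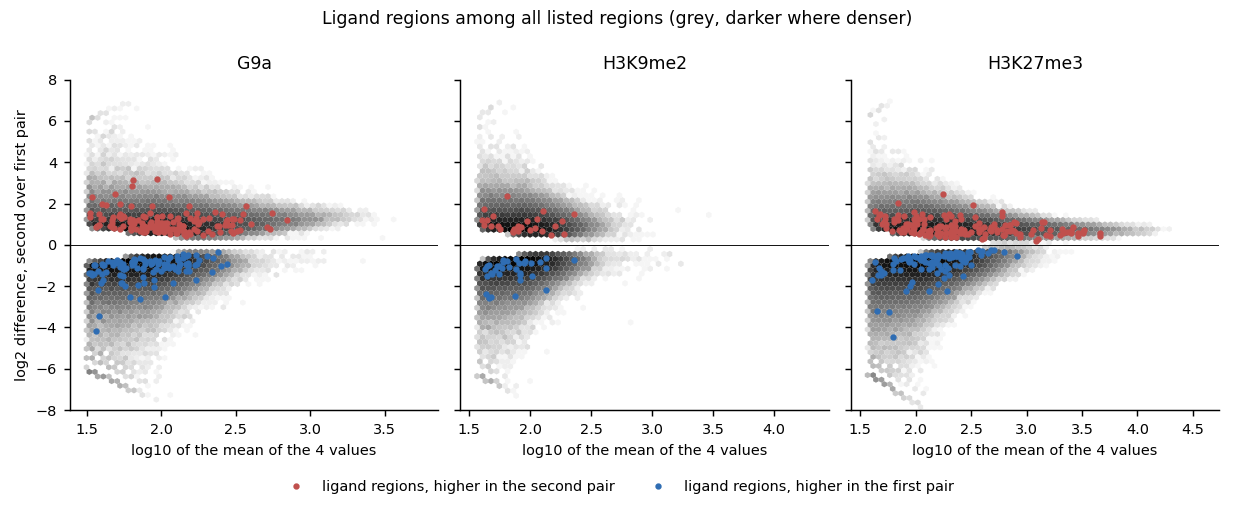
Log2 difference (second over first pair) of each listed region against the log10 of the mean of its 4 values, for G9a, H3K9me2 and H3K27me3, with all regions in grey and ligand regions in red (higher in the second pair) and blue (higher in the first pair). Ligand H3K27me3 regions of the highest level are red with differences of 0.40 to 1.57 for those of 3 kb or more, and steep blue differences stand at low levels, such as Inhba at -4.47.

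Listed regions of G9a and of H3K27me3 often overlapped at the ligands. At 20 ligands a second-pair G9a region overlapped a second-pair H3K27me3 region (64.5%, against 32.1% of all genes), over 74.81 kb in all, and at 18 of them by 500 bp or more. Among these were Bmp4, Bmp10, Nodal, Gdf10, Inhbb, Lefty1 and Lefty2. First-pair regions of both overlapped at 10 ligands (32.3%, against 27.2%), over 10.14 kb. Opposite directions overlapped too, a second-pair G9a region with a first-pair H3K27me3 region at 18 ligands (58.1%, against 23.5%) and the reverse at 16 (51.6%, against 28.3%). Overlap of G9a with H3K9me2 of the second pair occurred at Bmp5 and Bmp6 only (6.45%, against 13.5%), and of the first pair at 5 ligands (16.1%, against 18.9%). These shares are of genes, and genes with more regions have more chances of an overlap, which was not accounted for.

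At the promoter windows, 11 of the 20 ligands with a RefSeq window lay under a second-pair H3K27me3 region, while 23.8% of 17492 genes did. They were Bmp4, Bmp6, Bmp8a, Bmp8b, Bmp10, Gdf2, Gdf10, Gdf11, Inhbb, Inhbc and Nodal. A second-pair G9a region lay over 6 (13.3% of all genes), those of Bmp4, Bmp8a, Bmp8b, Bmp10, Inhbb and Inhbe, and a first-pair one over 3 (8.71%), those of Nodal, Gdf10 and Inhba. No ligand window lay under an H3K9me2 region, which covered 2.83% of all genes' windows in the second-pair direction and 3.25% in the first. The ligand windows under second-pair H3K27me3 held a median of 15 CG dinucleotides (n = 11 windows), against 6.5 in the others (n = 10), while over all windows the medians were 9 under such a region and 15 elsewhere. The range under the region was 3 at Bmp10 to 42 at Gdf10. The ligand windows not under such a region include that of Gdf7, which lies just beyond the end of one.

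The SMAD box, CAGAC or its reverse complement GTCTG, was found on either strand in 12 of the 21 ligand windows (57.1%, against 48.4% of all windows). The palindrome GTCTAGAC was found in none (0.226% of all), and the GC element GGCGCC in that of Gdf10 alone (15.3% of all). A match describes letters in a window and is no sign of binding.

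**Figure D5:**
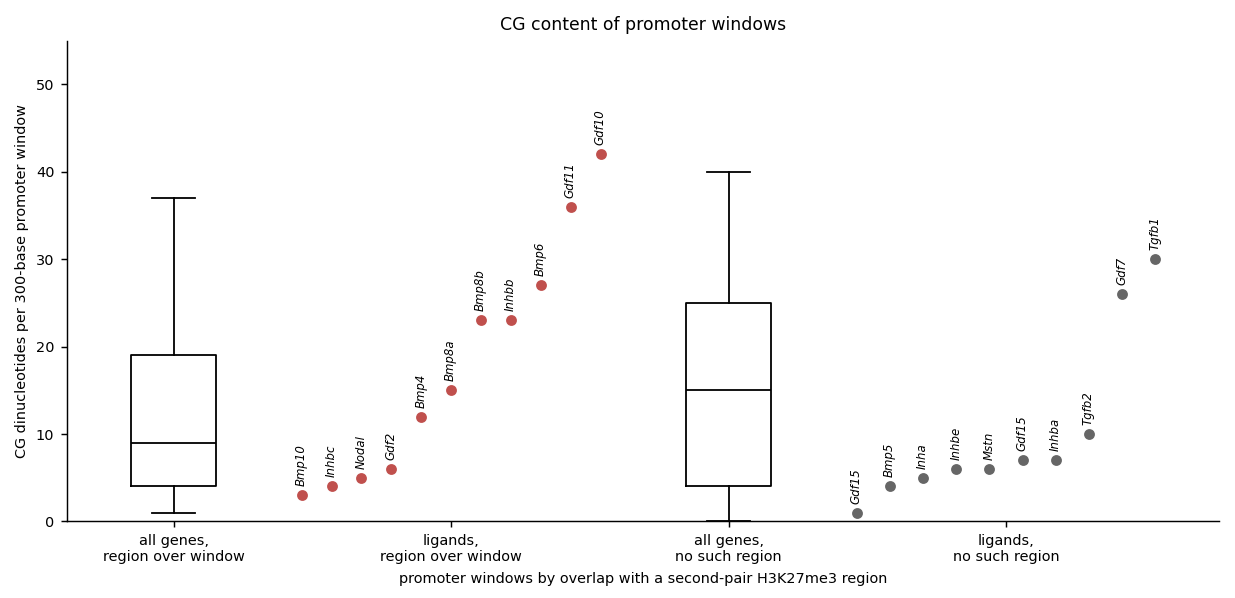
CG dinucleotides per 300-base promoter window for windows under a second-pair H3K27me3 region (left) and others (right), with boxes for all genes (median and quartiles, whiskers from the 5th to the 95th percentile) and points for the ligand windows. The ligand windows under a region run from 3 at Bmp10 to 42 at Gdf10, and those under none include Tgfb1 at 30 and Gdf7 at 26. The Gdf7 promoter window (chr12:8301905-8302204) lies just beyond a second-pair H3K27me3 region that ends at 8301800, and such regions cover 89.4% of its gene window.

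A test over the replicates of all regions did not single out any ligand region. limma on log2(value + 1), with Benjamini-Hochberg adjustment over each whole table, called 0 regions at an adjusted p of 0.05 in each of the 3 tables. At an unadjusted p under 0.05, limma had 20 of the 260 H3K27me3 ligand regions (12.3% of the whole table), 11 of the 260 G9a regions (3.94%) and 4 of the 60 H3K9me2 regions (8.75%). The smallest was that of the Inhba flank for H3K27me3, with a limma log2 difference of -4.64 (SE 0.65), unadjusted p 0.000926 and adjusted p 0.361. The smallest two-sided p that an exact permutation test can give with 2 libraries against 2 is 0.333. The calls above are therefore the authors', and the spread between replicates is given by the values themselves.

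Sums over the ligand regions show how the libraries stand. For H3K27me3 they were 132084 and 116009 in the second pair, against 93028 and 91803 in the first, and the pairs do not overlap. Over all regions of that table they do: the second pair summed to 143213031 and 121358984, and the first to 124198535 and 112764904. For G9a the ligand sums were 32744 and 36701 in the second pair, against 23948 and 30461 in the first, again without overlap, whereas over the whole table they were 41922229 and 48327896 in the second pair, against 36881071 and 44672116 in the first, with overlap. The regions are listed because their pairs differ, and most of these ligand regions are second-pair ones. For H3K9me2 they were 5564 and 4296 in the second pair, against 5085 and 5584 in the first, and the pairs overlap. In the G9a table the first library of the second pair stood apart, with 9.34% of all regions at 0, against 0.163% to 1.40% in the other 3 libraries, and at 11 of the 260 ligand regions. Without it, 29 ligands had a second-pair G9a region (64.4% of all genes) and 25 a first-pair one (74.5%). As to cell type, markers had regions of both directions in similar numbers. Second-pair G9a regions (55.5% of all genes) were listed for 5 of 12 cardiomyocyte, 7 of 10 fibroblast, 8 of 8 endothelial, 7 of 7 smooth muscle and pericyte and 7 of 8 leukocyte markers, and first-pair ones (76.7%) for 5, 7, 8, 6 and 7. Second-pair H3K27me3 regions (50.4%) were listed for 2, 8, 8, 6 and 7 of them in the same order, and first-pair ones (58.3%) for 1, 8, 7, 6 and 6. The cardiomyocyte markers with H3K27me3 were Myl7 and Mb. Whether other cells in the preparations contributed to the ligand values was not tested.

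The other genes of the pathway were listed less evenly. Of 58 receptor, inhibitor, SMAD and target genes, 33 had a second-pair H3K27me3 region (56.9%) and 34 a first-pair one (58.6%), beside 50.4% and 58.3% of all genes and 80.6% and 83.9% of the ligands. For G9a it was 41 (70.7%, against 55.5% of all genes) and 53 (91.4%, against 76.7%), and for H3K9me2 27 (46.6%, against 38.8%) and 29 of 58, a share close to the 48.1% of all genes. Whether the ligands differ from these genes was not tested.

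Extracellular inhibitors and binders had H3K27me3 shares near those of the ligands, with 16 of 20 under a second-pair region (80.0%, against 50.4% of all genes) and 17 under a first-pair one (85.0%, against 58.3%). For G9a, 15 of 20 had a second-pair region (55.5% of all genes) and 18 a first-pair one (76.7%), and for H3K9me2 it was 9 (38.8%) and 8 (48.1%). Their second-pair G9a share was thus below the 90.3% of the ligands, and their second-pair H3K9me2 share above the 19.4%. Ltbp2, which binds matrix and is related to the proteins that store latent TGF-beta, had 8897 and 7722 H3K27me3 in the second pair, against 4854 and 4386 in the first (log2 difference 0.85). Its G9a was 4298 and 2671 in the second pair, against 746 and 1815 in the first (1.44). The pairs are separated for both, with the higher values in the second pair. Chrd, the BMP antagonist chordin, had 3522 and 3218 H3K27me3 in the second pair, against 1518 and 2326 in the first (0.81), and Chrdl2, a relative, had 2993 and 2555 in the second pair, against 1483 and 1345 in the first (0.97). Bmper, a BMP modulator of endothelial cells, had H3K9me2 of 332 and 414 in the second pair, against 110 and 180 in the first (1.36).

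SMADs and their regulators had few H3K27me3 regions, with 2 of 12 under a second-pair one (16.7%, against 50.4% of all genes) and 4 under a first-pair one (33.3%, against 58.3%). All 12 had a first-pair G9a region (76.7% of all genes) and 6 a second-pair one, a share near the 55.5% of all genes. For H3K9me2, 4 had a second-pair region (33.3%, against 38.8% of all genes) and 10 a first-pair one (83.3%, against 48.1%). Smad2, which carries TGF-beta and activin signals, had G9a of 0 and 4 in the second pair, against 110 and 257 in the first (-5.94), and Smad3 had 6 and 72 in the second pair, against 211 and 237 in the first (-2.49). Smad3 also had a second-pair G9a region, with 51 and 110 in the second pair, against 28 and 14 in the first (1.89). Smad1 was listed at 0 and 0 for H3K27me3 in the second pair, with 69 and 149 in the first, and Smad5 at 0 and 0, with 92 and 93, so no fold is given. All of these are separated, and at the first-pair regions the second-pair values lay between 0 and 72.

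Of 14 receptors, 9 had a second-pair G9a region (64.3%, against 55.5% of all genes) and all 14 a first-pair one (76.7% of all genes), and 7 and 6 had H3K27me3 regions of the second and of the first pair (50.4% and 58.3% of all genes). Eng and Acvrl1, a co-receptor and a receptor of endothelial cells, had G9a of 898 and 760 in the second pair, against 112 and 327 in the first (1.91), and of 1664 and 1043 in the second pair, against 780 and 398 in the first (1.20). Both also had first-pair G9a regions, led by differences of -1.16 at Eng and -0.64 at Acvrl1. Bmpr1b, a type I BMP receptor, had 5198 and 4272 H3K27me3 in the second pair, against 3032 and 2492 in the first (0.78). Elsewhere in its window a first-pair H3K27me3 region had 33 and 1 in the second pair, against 191 and 94 in the first (-3.0). Tgfbr1, the type I TGF-beta receptor, had 1 and 0 in the second pair, against 182 and 25 in the first, at a first-pair H3K27me3 region.

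Of 12 target genes, 8 had a second-pair H3K27me3 region (66.7%, against 50.4% of all genes) and 7 a first-pair one (58.3%, as of all genes). For G9a it was 11 (91.7%, against 55.5%) and 9 (a share near the 76.7% of all genes). Runx2, a bone regulator that BMPs induce, had 6176 and 5598 H3K27me3 in the second pair, against 3598 and 4141 in the first (0.61), and G9a of 562 and 491 in the second pair, against 29 and 144 in the first (2.59). Fn1, encoding fibronectin, had 2433 and 2132 H3K27me3 in the second pair, against 1115 and 1324 in the first (0.90). Col1a1, encoding a chain of collagen type I, had 5582 and 4584 in the second pair, against 3517 and 3728 in the first (0.49). The second-pair values were the higher ones without overlap in each of these. Id2, a direct BMP target, had H3K27me3 regions of both directions. Its leading first-pair region had 0 and 73 in the second pair, against 203 and 211 in the first (-2.47). Its leading second-pair region had 174 and 179 in the second pair, against 116 and 27 in the first (1.29). Runx2 and Fn1 also had first-pair H3K27me3 regions, led by differences of -1.47 and -1.41, and Col1a1 had none.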

How the data were processed

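ChIP-seq with antibodies against G9a, H3K9me2 and H3K27me3 was done on cardiomyocyte-enriched cells 1 week after TAC and on sham controls. The library kit was NuGEN Ovation Ultralow V2, per the labels' protocols. BWA 0.7.10-r789, SAMtools 1.1 and the build mm10 (GRCm38) are named in the submitters' processing notes. Which caller, scaling and input correction produced the regions was not given in the sources used here. Each deposited table covers 1 antibody and lists, per region, 4 whole-number values and the authors' -log10 p, without a header. Whether these deposited values are raw reads is not stated, so no count model was used, and depth per library and counting intervals are not given. Tables name sham before TAC, but do not say that the value pairs follow that order; if the pairs' conditions are taken the wrong way, any statement about them turns round.

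Log2 differences are of pair means with a pseudocount of 1, which understates low regions; the pooled SD is on the same scale. limma 3.58.1 (R 4.3.3) was fitted to all regions of each table, unscaled and unfiltered. It was also run on simulated data with a smaller spread than between the second-pair libraries. That run therefore cannot show which changes limma would detect here. Genes came from the RefSeq table of GRCm38.p6. Exons and introns were not told apart. A region counted with an overlap of 1 bp. Named regions are those with the smallest deposited p of up to 8 ligands per table and direction, those over promoter windows and those of 10 ligands listed by name; regions of other ligands were added so that each is described. The members and lists were chosen with earlier results of these data known. Nothing says whether the 2 replicates per group share animals, so limma's p measures only the spread between these libraries.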

Additional observations from a re-analysis of the deposited data

How the results depend on the processing

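The number of ligands with a listed region kept within 1.5 times of the reported count for G9a and H3K27me3 of the second pair under all alternatives. At a deposited -log10 p of 5 or more, first-pair ligands fell to 15 of 31 for G9a, a share below the 58.6% of all genes. For H3K27me3 they fell to 16, a share close to the 47.6% of all genes. Second-pair ligands were 24 for G9a (40.5% of all genes) and 24 for H3K27me3 (44.9%). H3K9me2 ligands fell to 3 (second pair, 24.7% of all genes) and 5 (first pair, 33.3%). With 10000 bp of flank, H3K9me2 ligands were 12 (second pair, 52.0% of all genes) and 19 (first pair, 64.7%). With regions of a mean of 100 or more they were 3 (20.7%) and 4 (21.7%). Leaving out each library in turn gave 26 to 29 second-pair and 23 to 27 first-pair ligands for G9a, 5 to 6 and 11 to 12 for H3K9me2, and 25 to 25 and 25 to 26 for H3K27me3. limma called 0 ligand regions under every alternative but one: without the second library of the second pair it called 21 G9a regions (range 0 to 21), all higher in the first pair, and 56515 in the whole table, with the lone library assumed to vary like the others.

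Of 83 named regions, 8 changed sign when 1 library was left out. Their ranges over the 4 leave-one-out values were, for G9a, -0.12 to 5.42 at Bmp2, -0.08 to 3.20 at the Bmp8b start, -3.94 to 0.06 at the Gdf10 start, -0.54 to 4.27 at Gdf11 and -0.60 to 1.43 at Inhbe. For H3K27me3 they were -0.05 to 0.51 at the Bmp6 start and -1.14 to 0.26 inside Gdf11, and for H3K9me2 -0.95 to 1.70 at Inhbc. The cause was not tested. Dividing each library by its median moved 18 named values beyond the pooled SD, turned none, and shifted the median limma difference of all regions. With this scaling it was -0.42 for G9a, against -0.73 unscaled, -0.48 for H3K9me2, against -0.65, and -0.26 for H3K27me3, against -0.55. No paired analysis was possible because the value columns carry no replicate numbers. With 2 libraries per pair and an unknown scale of the values, depth cannot be separated from signal, and regions that did not reach the authors' threshold are not in the tables.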
